A study of Saccharomyces cerevisiae with 4 samples.

Results

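The genes described here are 10 genes of lower glycolysis and alcoholic fermentation in budding yeast (Saccharomyces cerevisiae), out of 6659 genes with an expression value. They were taken by name: TDH1, TDH2, TDH3, PGK1, ENO1, ENO2, CDC19, PDC1, PDC5 and ADH1, and all 10 were measured. Transcriptomes, after removal of ribosomal RNA, were sequenced in 4 strains with 1 library each: wild type (WT), snf2∆ (snf2-delta:NatMX), ume6∆ (ume6-delta:KanMX) and the double deletion ume6∆snf2∆. The 4 strains were haploid, of BY4741/2 background, carried the same his-ura-leu- genotype, and were grown in rich medium with dextrose to mid-log phase. Snf2 is the ATPase of the nucleosome remodeler Swi/Snf, and Ume6 is a DNA-binding repressor of early meiotic genes.

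Lower glycolysis turns triose phosphates into pyruvate and returns ATP, and fermentation turns pyruvate into ethanol while it restores the NAD+ that glyceraldehyde-3-phosphate dehydrogenase (GAPDH) uses up. Yeast in glucose ferments even with oxygen present, and it makes the messages of these enzymes in very large amounts. Several steps have more than 1 gene. TDH1, TDH2 and TDH3 encode GAPDH, PGK1 phosphoglycerate kinase, ENO1 and ENO2 enolase, CDC19 the main pyruvate kinase, PDC1 and PDC5 pyruvate decarboxylase, and ADH1 the main alcohol dehydrogenase that makes ethanol.

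Expression is given as RPKM, a read count divided by gene length and by library size, so that levels can be compared between genes. The library sizes behind the scaling were 27722482 reads for WT, 25657586 reads for snf2∆, 30161995 reads for ume6∆ and 17424921 reads for the double deletion. Since each strain has a single library, differences between strains could not be tested against replicates. Each 95% interval comes from the recovered reads and covers counting error only. SNF2 had 0.107 and 0.157 RPKM in the libraries of the strains deleted for it against 36.9 and 67.9 in the others, and UME6 had 0.0132 and 0.137 against 19.6 and 34.6, so the deleted genes followed the labels. The libraries also differed in mating type genes. The a-cell genes STE2, MFA1 and MFA2 had 139 to 416 RPKM in WT and ume6∆ and 0.999 to 15.7 RPKM without SNF2. The alpha-cell genes STE3, MF(ALPHA)1 and MF(ALPHA)2 had 2.46 to 10.4 RPKM in WT and ume6∆ and 151 to 7498 RPKM without SNF2. MET17 had 2350.2 RPKM in the double deletion and 0.817 to 1.12 elsewhere, and LYS2 had 0.385 RPKM there and 91.0 to 303 elsewhere. Mating type therefore cannot be told apart from SNF2 here, and what goes with MET17 and LYS2 cannot be told apart from the double deletion.

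In WT, TDH3 was the most abundant of the 10 messages at 12263 RPKM, place 5 among all genes. It was followed by CDC19 at 6203 RPKM, ENO2 at 5024, PDC1 at 4020 (4019.7), ADH1 at 3479, PGK1 at 2709, ENO1 at 1996, TDH2 at 1509 and TDH1 at 1473. PDC5 stood far below them at 19.0 RPKM, place 5117. Of the 10 genes, 9 were among the 100 most expressed in WT and 7 in each deletion library. Counting intervals of neighbours in this order did not overlap, although TDH2 exceeded TDH1 by a ratio of 1.02. In the double deletion the order opened with PDC1 at 7189 RPKM and CDC19 at 7127, whose intervals overlapped, ahead of TDH3 at 6189. Together the 10 genes took 4.95% of the reads in matched genes in WT (exact 95% interval 4.94% to 4.95%), 5.07% in snf2∆ (5.06% to 5.07%), 8.25% in ume6∆ (8.24% to 8.26%) and 4.35% in the double deletion (4.34% to 4.36%). Their share was thus highest in ume6∆ and lowest in the double deletion.

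**Figure D1:**
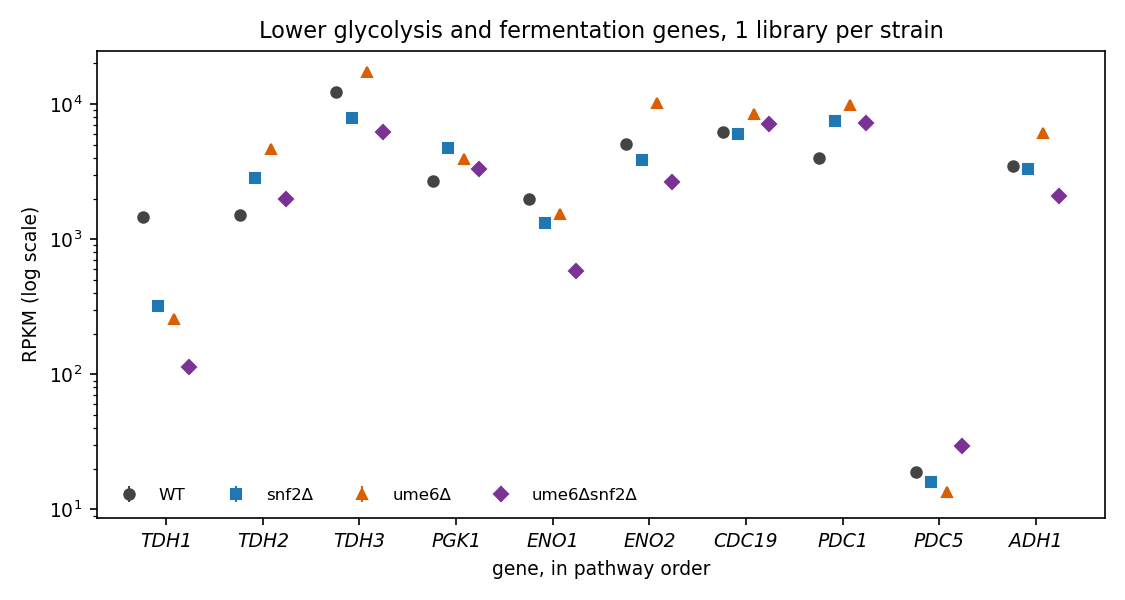
RPKM of each gene (log axis) in the 4 libraries, 1 point per library, with exact 95% counting intervals that are mostly smaller than the points. TDH1 runs from 1473 RPKM in WT down to 114 in the double deletion, while CDC19 stays between 6055 and 8469, and PDC5 lies between 13.4 and 29.7.

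The GAPDH genes moved apart from each other. TDH1 (YJL052W, R64 chromosome X, 338271 to 339269), the form known from stress and slow growth, was lower in every deletion library, whereas TDH2 was higher in every one. TDH1 had 1473 RPKM in WT, 318 in snf2∆, 258 in ume6∆ and 114 in the double deletion. WT stood alone at the top, at ratios of 0.216 (interval 0.211 to 0.221), 0.176 (0.171 to 0.180) and 0.0772 (0.0738 to 0.0808) for the deletions. Only 1.60% of all genes had a lower log2 change in snf2∆ over WT, 0.874% in ume6∆ over WT and 0.475% in the double deletion over WT.

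TDH2 (YJR009C, chromosome X, 453683 to 454681), the close relative of TDH3, had 1509 RPKM in WT, 2830.1 in snf2∆, 4624 in ume6∆ and 1995 in the double deletion. Here WT was the lowest and ume6∆ the highest, at 3.07 times WT (interval 3.03 to 3.10). TDH3 (YGR192C, chromosome VII, 882812 to 883810), the main form in growing cells, had 12263 RPKM in WT, 7843 in snf2∆, 17236 in ume6∆ and 6189 in the double deletion. Its 2 libraries without SNF2 were below its 2 libraries with SNF2. The double deletion was at 0.359 of ume6∆ (0.357 to 0.361), and snf2∆ at 0.640 of WT (0.636 to 0.643).

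Shares within the family do not depend on how the libraries are scaled. TDH1 made up 9.66% of GAPDH expression in WT (interval 9.57% to 9.75%), 2.89% in snf2∆ (2.83% to 2.96%), 1.17% in ume6∆ (1.14% to 1.19%) and 1.37% in the double deletion (1.31% to 1.43%). TDH2 held 9.90%, 25.7%, 20.9% and 24.0% in the same order, and TDH3 held 80.4%, 71.4%, 77.9% and 74.6%. TDH1 and TDH2 were almost level in WT, at a ratio of 0.976, and stood at 0.112 in snf2∆, 0.0559 in ume6∆ and 0.0570 in the double deletion. Between ume6∆ and the double deletion that ratio moved by a factor of 1.02 (interval 0.970 to 1.07), within counting error, although TDH1 and TDH2 were each lower in the double deletion, at 0.440 and 0.431 of ume6∆. The summed GAPDH level was 15244 RPKM in WT, 10991 in snf2∆, 22119 in ume6∆ and 8297 in the double deletion, so the total did not follow TDH1.

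**Figure D2:**
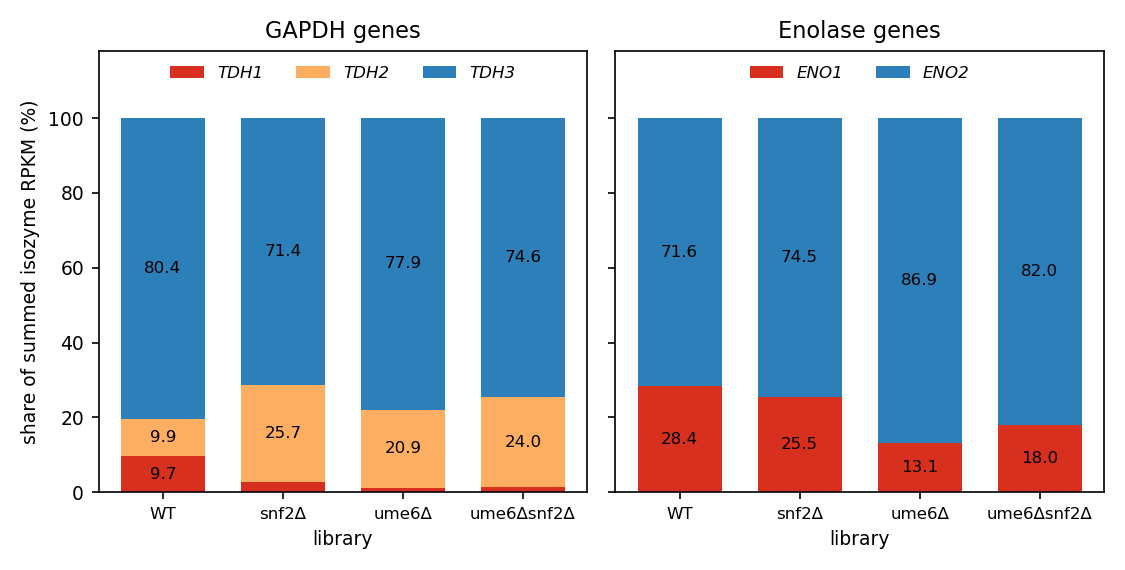
Share of each gene in the summed RPKM of its isozymes, in percent, in the 4 libraries (1 each, no error bars). TDH1 takes 9.66% in WT and 1.17% to 2.89% in the deletions, and ENO1 takes 28.4% in WT and 13.1% in ume6∆.

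The coding sequences of the isozymes differ in part, and the stretches with the most differences are shown. What part of the reads could be placed was not tested. TDH2 and TDH3 share 95.8% of their 999 coding bases and differ in 12 of 332 residues. TDH1 differs from TDH2 in 98 bases and from TDH3 in 111. Of all windows of 50 bases in the gene, 84.3% occur once in the genome for TDH1, 68.7% for TDH2 and 75.6% for TDH3, and with 100 bases the figures are 95.4%, 87.2% and 91.8%. The authors' rule for reads that match several places is not given in the sources used here. ERR1 and ERR2, enolase-related genes with identical coding sequence and 0% such windows, carried the same nonzero value in each library, so shared reads were not simply dropped. The reads of TDH2 and TDH3 may therefore be mixed. TDH3 had 8.13 times the RPKM of TDH2 in WT, so even a small part of its reads would weigh on TDH2. How much of the TDH2 levels and shares comes from TDH3 reads was not tested. Coding bases 64 to 123 of the GAPDH genes, from the R64 genome, are given 5′ to 3′ on the coding strand, with capitals at the 21 positions where the 3 genes are not all alike (chrX:338334-338393 plus strand, chrX:454559-454618 minus strand and chrVII:883688-883747 minus strand).
TDH1: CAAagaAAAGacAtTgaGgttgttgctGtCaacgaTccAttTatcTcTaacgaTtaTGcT
TDH2: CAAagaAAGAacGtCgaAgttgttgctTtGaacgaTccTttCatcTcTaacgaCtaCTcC
TDH3: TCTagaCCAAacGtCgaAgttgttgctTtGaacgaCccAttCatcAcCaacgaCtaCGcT

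The enolase genes differed from each other most in ume6∆, where ENO2 was above 2-fold over WT and ENO1, with a log2 change of -0.37, lay near the median of all genes of -0.30. ENO1 (YGR254W, chromosome VII, 1000927 to 1002240), the form known to be less dependent on glucose, had 1996 RPKM in WT, 1311 in snf2∆, 1548 in ume6∆ and 580.4 in the double deletion. WT was the highest and the double deletion the lowest, at 0.291 of WT (interval 0.285 to 0.296). ENO2 (YHR174W, chromosome VIII, 451327 to 452640), the glucose-induced form, had 5024 RPKM in WT, 3839 in snf2∆, 10222 in ume6∆ and 2650.0 in the double deletion. Its level in ume6∆ was 2.03 times WT (2.02 to 2.05), and its level in the double deletion was 0.259 of ume6∆ (0.257 to 0.261), the lowest such ratio of the 10 genes. The share of ENO1 in enolase expression was 28.4% in WT (28.3% to 28.6%), 25.5% in snf2∆ (25.3% to 25.7%), 13.1% in ume6∆ (13.1% to 13.2%) and 18.0% in the double deletion (17.7% to 18.2%). The ratio of ENO1 to ENO2 was at 0.381 of its WT value in ume6∆ (0.377 to 0.386) and at 0.860 in snf2∆ (0.848 to 0.872). The enolase coding sequences share 94.8% of 1314 bases, and 76.4% of their windows of 50 bases occur once in the genome. Coding bases 340 to 399 of the enolase genes hold 13 differences, in capitals (chrVII:1001266-1001325 and chrVIII:451666-451725, plus strand, R64).
ENO1: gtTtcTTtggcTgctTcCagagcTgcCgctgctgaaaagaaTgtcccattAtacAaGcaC
ENO2: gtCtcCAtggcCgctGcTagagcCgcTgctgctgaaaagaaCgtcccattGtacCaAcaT

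PGK1 and CDC19, which belong to the steps that form ATP, varied least of the 10 genes. PGK1 (YCR012W, chromosome III, 137746 to 138996) had 2709 RPKM in WT, 4729 in snf2∆, 3914 in ume6∆ and 3291 in the double deletion. WT was the lowest of the 4 and snf2∆ the highest, at 1.75 times WT (interval 1.73 to 1.76). CDC19 (YAL038W, chromosome I, 71786 to 73288), which makes pyruvate, had 6203 RPKM in WT, 6055 in snf2∆, 8469 in ume6∆ and 7127 in the double deletion. Its highest value was 1.40 times its lowest, the narrowest range of the 10 genes, against 12.9 times for TDH1.

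Pyruvate decarboxylase was carried almost wholly by PDC1. PDC1 (YLR044C, chromosome XII, 232390 to 234081) had 4019.7 RPKM in WT, 7444 in snf2∆, 9878 in ume6∆ and 7189 in the double deletion, so WT was the lowest, and ume6∆ was 2.46 times WT (2.44 to 2.47). PDC5 (YLR134W, chromosome XII, 410723 to 412414), known as a reserve gene that is induced when PDC1 is lost or thiamine is short, had 19.0 RPKM in WT, 15.99 in snf2∆, 13.4 in ume6∆ and 29.7 in the double deletion, from 686 to 890.0 reads. The double deletion was the highest, at 2.21 times ume6∆ (2.00 to 2.45) and 1.57 times WT (1.43 to 1.72). PDC5 made up 0.470% of the pair in WT (0.440% to 0.502%), 0.214% in snf2∆ (0.199% to 0.231%), 0.136% in ume6∆ (0.126% to 0.146%) and 0.412% in the double deletion (0.385% to 0.440%). The pair shares 87.2% of 1692 coding bases, and 99.0% of the windows of 50 bases in each occur once in the genome. Their most different stretch, coding bases 559 to 618, holds 19 differences, in capitals (chrXII:233464-233523 minus strand and chrXII:411281-411340 plus strand, R64).
PDC1: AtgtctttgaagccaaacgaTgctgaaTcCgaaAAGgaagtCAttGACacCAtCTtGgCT
PDC5: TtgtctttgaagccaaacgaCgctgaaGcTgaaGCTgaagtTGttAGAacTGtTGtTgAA

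ADH1 (YOL086C, chromosome XV, 159548 to 160594) had 3479 RPKM in WT, 3329 in snf2∆, 6088 in ume6∆ and 2097 in the double deletion. WT and snf2∆ were close, at a ratio of 0.957 (interval 0.948 to 0.966), ume6∆ was 1.75 times WT (1.74 to 1.76), and the double deletion was 0.345 of ume6∆ (0.341 to 0.348). ADH2, its isozyme for ethanol use, stood at 2.75% to 3.14% of ADH1 in all 4 libraries. The coding sequences of ADH1 and ADH2 share 88.8% of 1047 bases and 86.0% of their windows of 50 bases occur once, so the part of shared reads in ADH2 was not tested.

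Across the list, calls of higher and lower were made at 2-fold on the scale of log2(RPKM + 1). In snf2∆ over WT, 0 of 10 genes were higher and 1 was lower, TDH1, while 3.31% of the 6520 genes averaging 1 RPKM or more were higher, 7.96% lower and 11.3% called in either direction. The median log2 change was -0.15 for the 10 genes and -0.11 for all genes. In ume6∆ over WT, 3 of 10 were higher (TDH2, PDC1 and ENO2) and 1 lower (TDH1), while 4.59% of all genes were higher, 15.2% lower and 19.8% either. With libraries scaled by median ratio, 8.79% of all genes were higher and 8.37% lower there, and ADH1 was called too, at a log2 change of 1.11 (1.003 with upper quartile scaling). The medians were 0.51 for the 10 genes and -0.30 for all genes, and the other 6 genes had log2 changes between -0.47 and 0.81. In the double deletion over WT, 0 were higher and 2 lower (TDH1 and ENO1), where 10.4% of all genes were higher, 9.97% lower and 20.3% either, with medians of -0.26 and 0.06. TDH3 was just inside the threshold there, with a log2 change of -0.99, and was called lower as well when libraries were scaled by median ratio or upper quartile.

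The comparison of the double deletion with ume6∆ set the median of the list farthest from that of all genes. There 6 of 10 genes were lower, namely TDH1, TDH2, TDH3, ENO1, ENO2 and ADH1, where 3.45% of all genes were lower and 14.6% were called in either direction. The same 6 genes were lower with median ratio and upper quartile scaling, where 6.64% and 5.52% of all genes were. PDC5 was the 1 gene that was higher, where 11.1% of all genes were (5.08% and 6.47% with the other scalings), and it was not called with either other scaling or a pseudocount of 5. The median log2 change was -1.19 for the 10 genes and 0.35 for all genes. PGK1, CDC19 and PDC1 were not called, with log2 changes of -0.25, -0.25 and -0.46. The fall was not particular to the list, since GPM1 and TPI1 were lower too, at -1.80 and -1.20, while FBA1, at -0.36, was not called. Whether very abundant messages in general were lower there was not tested. In the double deletion over snf2∆, 2 of 10 were lower (TDH1 and ENO1) and 0 higher, where 2.38% of all genes were lower, 8.13% higher and 10.5% either, with medians of -0.51 and 0.14. Comparisons that share a library also share its chance values. In snf2∆ over WT, the double deletion over WT and the double deletion over ume6∆, a-cell and alpha-cell genes differ along with SNF2, and their part in these results was not tested. MET17 and LYS2 differ in every comparison with the double deletion, also over snf2∆, and what goes with them was not tested either.

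**Figure D3:**
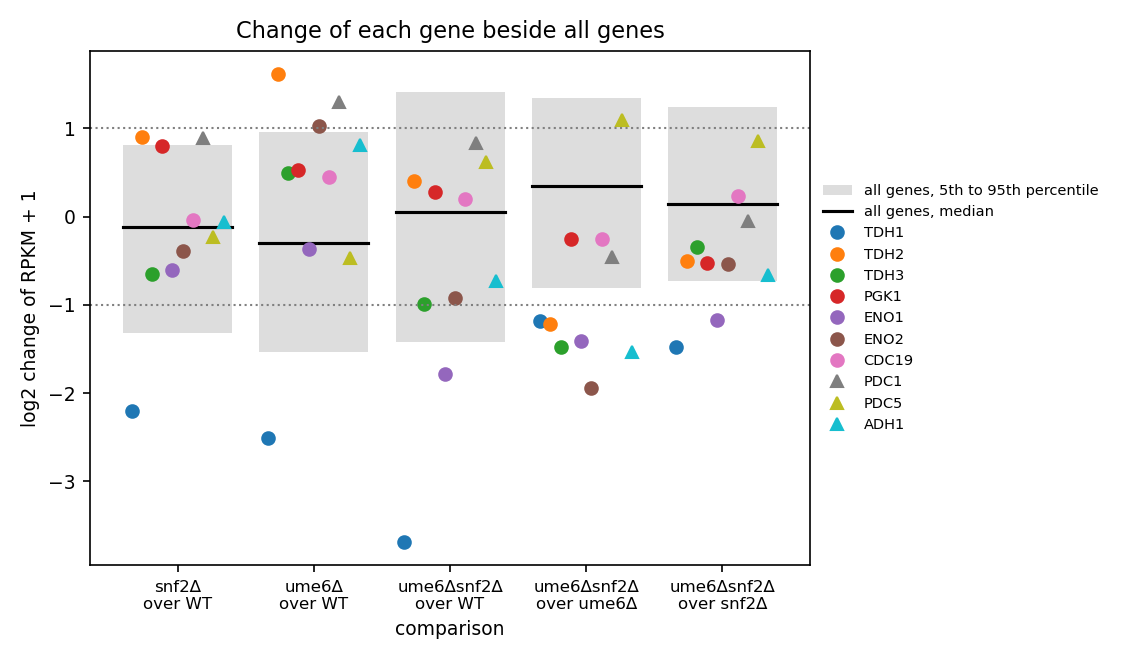
Log2 change of RPKM + 1 for each of the 10 genes in the 5 comparisons (points), beside the median (line) and the 5th to 95th percentile (grey) of all 6520 genes; dotted lines mark 2-fold. In the double deletion over ume6∆, 6 points lie below -1 while the median of all genes is 0.35.

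Losing Snf2 went with different changes in the 2 backgrounds, which share no library. TDH2 was 1.88 times higher in snf2∆ than in WT but at 0.431 in the double deletion relative to ume6∆. PDC1 went from 1.85 to 0.728 in the same way and PGK1 from 1.75 to 0.841, whereas PDC5 went from 0.843 to 2.21, although its first ratio was within counting error of 1 with either other scaling. The ratio of these ratios is 1 when Snf2 loss gives the same fold in each background. It was below 1 for 8 of the 10 genes, from 0.230 (interval 0.226 to 0.234) for TDH2 to 0.862 (0.855 to 0.869) for CDC19. It was 2.04 (1.93 to 2.15) for TDH1 and 2.63 (2.28 to 3.02) for PDC5. On the log2 scale 5 genes were at or below -1, where 3.91% of all genes were, and 2 were at or above 1, where 21.5% of all genes were. The median of all genes was 0.48. With no second culture of any strain, these differences between the backgrounds were not tested.

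**Figure D4:**
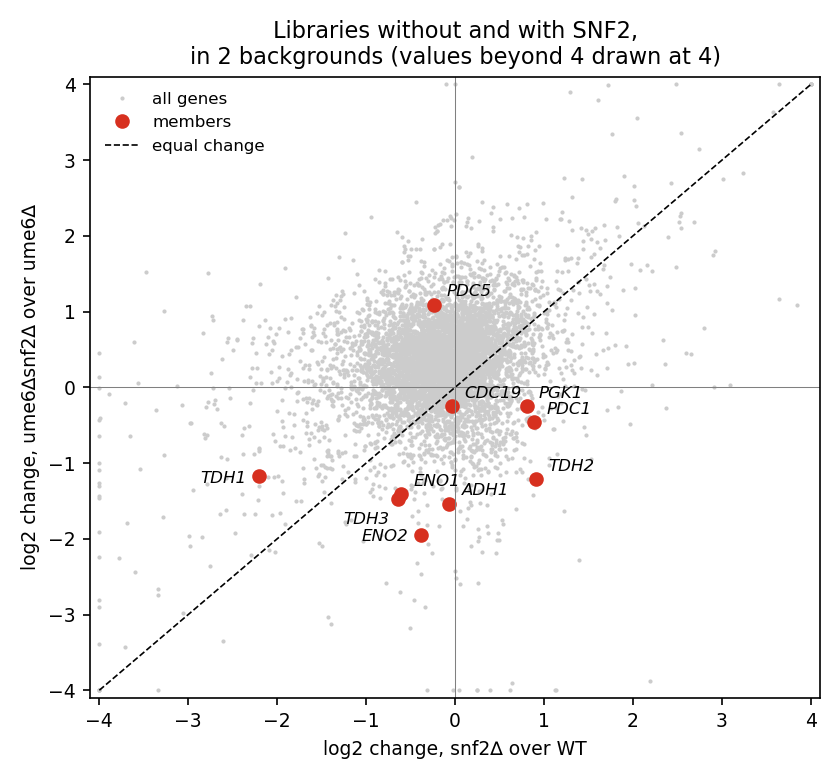
Log2 change of RPKM + 1 in snf2∆ over WT (horizontal) and in ume6∆snf2∆ over ume6∆ (vertical) for all genes (grey) and the 10 genes (red); the dashed line marks equal change. TDH1 and PDC5 lie above the line and the other 8 genes below it.

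Summed by step, expression in ume6∆ was higher than in WT all along the lower pathway. The ratio to WT was 1.38 for FBA1 (aldolase), 1.43 for TPI1 (triose phosphate isomerase), 1.45 for GAPDH, 1.44 for PGK1, 1.41 for GPM1 (phosphoglycerate mutase), 1.68 for enolase and 1.37 for CDC19. It was 2.45 for pyruvate decarboxylase and 1.75 for ADH1. In snf2∆ neighbouring steps went opposite ways, with PGK1 at 1.75 times WT and GPM1 at 0.427. In the double deletion the ratios ran from 0.405 for GPM1 and 0.460 for enolase to 1.79 for pyruvate decarboxylase.

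**Figure D5:**
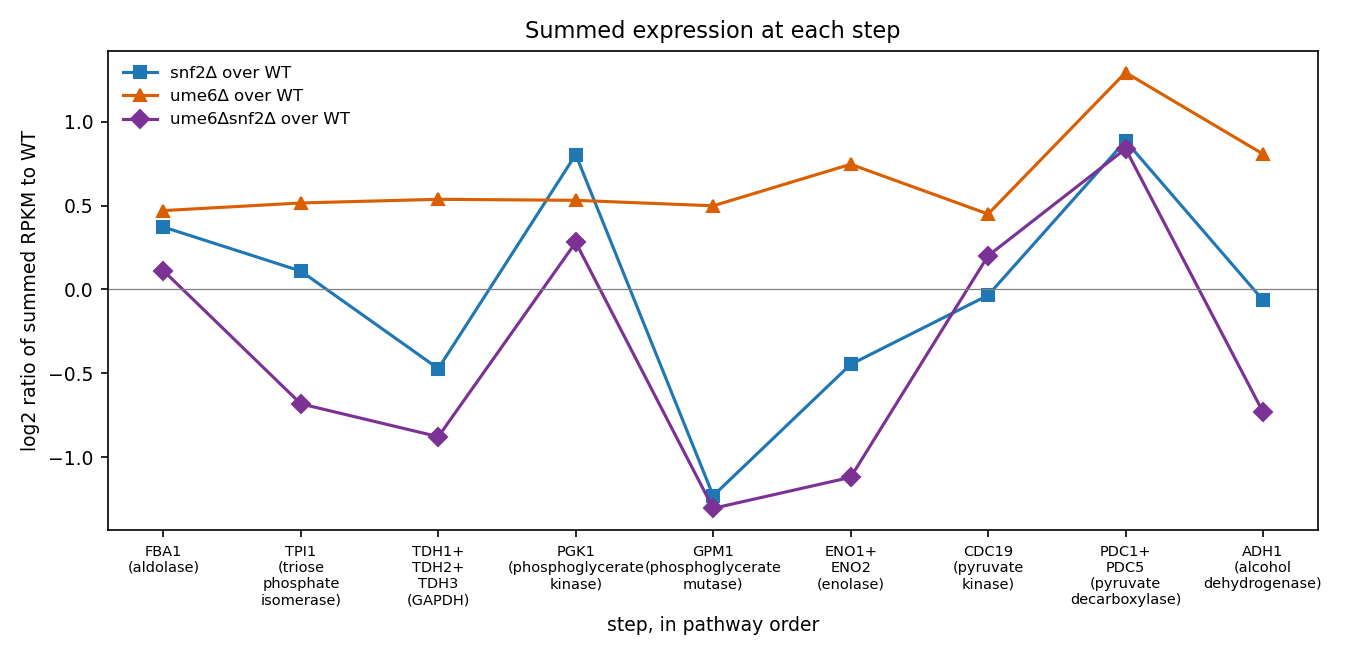
Log2 ratio to WT of the summed RPKM at each step, in pathway order, for the 3 deletion libraries (1 value each). ume6∆ lies between 0.45 and 0.54 from aldolase to mutase and at pyruvate kinase, while snf2∆ is at 0.80 at PGK1 and -1.23 at GPM1, its lowest step, and is highest at pyruvate decarboxylase (0.89).

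Other genes of the pathway were read from lists, to be set against the shares of all genes called in snf2∆ (3.31% higher and 7.96% lower), ume6∆ (4.59% and 15.2%) and the double deletion (10.4% and 9.97%) over WT. Of 8 upper glycolysis genes, 2 were lower and 0 higher in each deletion over WT, HXK1 and GLK1 each time. HXK1, a hexokinase, had 336 RPKM in WT, 57.6 in snf2∆, 46.0 in ume6∆ and 41.6 in the double deletion, and GLK1, the glucokinase, had 275, 132, 71.0 and 125. Of 7 other lower glycolysis genes, 1 was higher and 1 lower in snf2∆, 0 and 2 in ume6∆, and 3 and 1 in the double deletion. Those 3 were ERR1, ERR2 and ERR3, of which ERR1 and ERR2 hold 1 shared value. GPM1 had 4375, 1866, 6179 and 1771 RPKM in WT, snf2∆, ume6∆ and the double deletion. PYK2, the minor pyruvate kinase, had 28.3, 32.7, 11.6 and 22.3 RPKM, and GPM2, a mutase homolog, had 11.4, 29.8, 4.00 and 7.17 RPKM.

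Of the 6 other decarboxylase and alcohol dehydrogenase genes, 1 was higher and 0 lower in snf2∆, 1 and 2 in ume6∆, and 2 and 0 in the double deletion. PDC6, a minor decarboxylase gene, had 1.22, 5.41, 3.82 and 14.9 RPKM in WT, snf2∆, ume6∆ and the double deletion, from 57 reads in WT. ADH5 had 79.0, 136, 32.3 and 59.2 RPKM, and ADH4 had 76.5, 49.2, 37.5 and 42.1 RPKM. None of these approached the level of ADH1 or PDC1.

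Of the 7 regulators of glycolytic genes, 0 were called in any of the 5 comparisons on RPKM as deposited. Over all genes 10.5% to 20.3% were called in either direction. With median ratio or upper quartile scaling, GCR1 passes the 2-fold threshold as lower in the double deletion than in ume6∆, from a log2 change of -0.80. GCR1, the activator of these genes, had 41.3 RPKM in WT, 36.2 in snf2∆, 41.6 in ume6∆ and 23.4 in the double deletion, so the double deletion was lowest, at 0.563 of ume6∆. Its partner GCR2 had 48.4, 41.7, 39.2 and 51.4 RPKM, RAP1 had 71.1, 59.7, 54.3 and 79.1, and TYE7 had 87.8, 101.3, 104 and 148. PDC2, the activator of the decarboxylase genes, had 39.0, 34.9, 26.6 and 41.9 RPKM, and ABF1 had 44.9, 29.9, 31.0 and 51.9. The 10 genes have 1 exon each, whereas GCR1 has an intron. Its deposited splicing efficiency, a fraction, was listed at 0 in WT, snf2∆ and ume6∆ and at 0.0807 in the double deletion, and the reads behind it are not known.

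The regions upstream were read for letters bound by known regulators, on either strand, in the 800 bases before the start codon. ACCCANNCA, a core for Rap1, was present for 5 of the 10 genes and for 9.09% of 5997 genes with a full window. CTTCC, the core for Gcr1, was present for 8 of 10 and for 82.0% of all genes, so it does not set the list apart. GCCGCC, the core of the Ume6 site URS1, was present for 1 of 10 and for 15.0% of all genes. That match, at position -727 from the start codon of ENO2, lies outside the 173 bases up to the nearest annotated gene. The same holds for the CTTCC matches of ENO2 at -752, -666 and -534. All CTTCC matches of TDH1, at -607, -429 and -363, lie outside the 267 bases up to its nearest annotated gene. For each of the 5 genes with ACCCANNCA, the match nearest to a CTTCC is shown with any CTTCC within 60 bases (TDH3 has 2 matches and no CTTCC). These windows and the PDC1 window with 4 CTTCC, a pair of which overlap, show how closely these letters lie. They are 5′ to 3′ on the gene's strand with matches in capitals (R64, chrVII:884303-884331 minus, chrIII:137264-137329 plus, chrVII:1000434-1000478 plus, chrI:71124-71162 plus, chrXV:161238-161288 minus and chrXII:234647-234715 minus).
TDH3: acatcgtaggTGTCTGGGTgaacagttta
PGK1: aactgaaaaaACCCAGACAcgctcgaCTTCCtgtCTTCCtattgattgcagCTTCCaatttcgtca
ENO1: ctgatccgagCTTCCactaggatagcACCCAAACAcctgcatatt
CDC19: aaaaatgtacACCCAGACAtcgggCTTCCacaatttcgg
ADH1: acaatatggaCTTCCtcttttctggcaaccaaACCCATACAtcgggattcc
PDC1: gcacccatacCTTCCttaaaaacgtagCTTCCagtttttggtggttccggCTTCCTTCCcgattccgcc

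Among the genes with ACCCANNCA, PGK1 was higher and TDH3 lower in snf2∆ than in WT. No ACCCANNCA or GCCGCC match was found for TDH1. Whether these letters bear on the changes was not tested. Narrow codon use was shared by all 10 genes. Their effective number of codons, which is low when few synonymous codons are used, was 24.1 for TDH3, the lowest of 5682 genes, and 24.5 to 26.6 for the 8 others apart from PDC5. PDC5, though expressed far less, still had 28.2, place 99 from the lowest, against a median of 51.6 over all genes. Other very abundant messages were not set beside them, so whether narrow codon use is particular to the list was not tested.

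Likeness of pattern was measured as the root mean square difference between log2(RPKM + 1) profiles, each centred on its mean over the 4 libraries. Among the 10 genes the closest pairs were ENO2 and ADH1 (0.20), TDH3 and ADH1 (0.21) and TDH3 and ENO2 (0.21). The genes nearest to the mean pattern of the list were MRP49 (0.019), SNR9 (0.042) and RPN9 (0.063). The nearest gene was RGI1 for TDH1 (0.16), with 79.2, 12.5, 11.1 and 5.31 RPKM in WT, snf2∆, ume6∆ and the double deletion, MET14 for TDH2 (0.12) and RPL11B for PDC1 (0.054). It was ADH2 for ADH1 (0.081), ENB1 for ENO2 (0.051), PER33 for ENO1 (0.15), MNP1 for TDH3 (0.088), MET32 for PGK1 (0.035), RPF2 for CDC19 (0.028) and FYV6 for PDC5 (0.029). With 4 libraries such likeness describes these values only, and the part of shared reads in the likeness of ADH2 to ADH1 was not tested.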

How the data were processed

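RNA-seq values of 4 yeast strains, 1 library each, were used. The authors deposited expression as RPKM per gene, and splicing efficiency as a deposited fraction whose formula is not given in the sources used here. Per the labels' protocols RNA was extracted with hot phenol and libraries were made with a TruSeq V2 kit, in which strand is not marked. No gene of the R64 annotation overlaps any of the 10 genes. The 673 genes with an expression value but no match in that annotation could not be checked for overlap. Per the submitters' processing notes the build was sacCer3 and tools included CASAVA and STAR 2.4.0. Of 6659 genes, 5986 matched the R64 annotation, the assembly behind sacCer3; 3 lines naming no gene, with 0.0811% to 0.221% of summed RPKM, were left out. RPKM times gene length gave whole multiples of a step for 99.5% to 99.6% of values above 0 (tolerance 0.05 reads), and for all 10 genes, so reads were recovered. PCR copies cannot be told from separate molecules in these values, so intervals cover counting error only.

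Levels, ratios of RPKM with Clopper-Pearson intervals, and differences of log2(RPKM + 1) were computed (Python 3.11.15, SciPy 1.17.1) and tested on simulated data. Ratios of ratios have log-normal intervals, since the exact conditional interval planned could not be computed at these counts. Named genes are the 10 genes, the 2 genes of each pathway list that changed most in snf2∆ or ume6∆ over WT at a mean of at least 10 RPKM, some fixed genes and regulators, strain checks and the nearest patterns. MFA1, MFA2, MF(ALPHA)1, MF(ALPHA)2 and ADH2 were added to these after their values were seen. The members and lists were chosen with earlier results of these data known. Sequences are from the RefSeq R64 genome. Alternatives were other library scalings, pseudocounts of 0.1 and 5, no filter, a 1.5-fold threshold, and isozyme levels rescaled to windows found once in the genome.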

Additional observations from a re-analysis of the deposited data

Results flagged for a closer look

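For 7 of the 10 genes, losing Snf2 or losing Ume6 went with opposite directions in the 2 backgrounds. The same held for 46.8% of the 5907 genes with recovered reads, 34.5% for Snf2 loss and 29.6% for Ume6 loss, against 4 and 7 of the 10. With 1 library per strain the difference was not tested. With median ratio or upper quartile scaling, an alternative chosen after seeing the data, 8 of the 10 turned, as did 35.8% and 35.3% of genes; ADH1 and CDC19 then turned for Snf2 loss and PDC5 did not. The ratio of the double deletion times WT over ume6∆ times snf2∆ was 0.230 for TDH2, 0.482 for PGK1, 0.393 for PDC1 and 2.63 for PDC5, and these 4 genes turned for each protein. Without Snf2, losing Ume6 went with 0.705, 0.696, 0.966 and 1.86 times the level, and with Snf2 with 3.07, 1.44, 2.46 and 0.708 times. The ratio was 0.561 for TDH3, 0.339 for ENO2 and 0.360 for ADH1, which turned for Ume6 loss alone. Their levels in ume6∆ were 1.41, 2.03 and 1.75 times WT, and in the double deletion 0.789, 0.690 and 0.630 times snf2∆. PDC1 in the double deletion over snf2∆, at 0.966 (interval 0.960 to 0.971), is the smallest of these changes. Under both other scalings and both other pseudocounts, 8 of the 10 genes stayed below the all-gene median of this measure.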

How the results depend on the processing

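Limits are the single library per strain, the missing rule for shared reads and the scaling. No paired analysis was possible because each strain has 1 library, and for the same reason no replicate could be left out. Median ratio scaling brought the all-gene medians to between -0.01 and 0.000535. With it the median log2 change of the 10 genes was -0.047 in snf2∆ over WT, 0.82 in ume6∆ over WT, -0.32 in the double deletion over WT, -1.56 over ume6∆ and -0.68 over snf2∆. With upper quartile scaling these medians were 0.000666, 0.71, -0.31, -1.44 and -0.72, and with a pseudocount of 5 they were -0.13 for snf2∆ over WT and -1.18 for the double deletion over ume6∆. The genes higher in snf2∆ over WT went from 0 to 1 with median ratio (TDH2), 2 with upper quartile scaling (TDH2 and PDC1) and 3 at 1.5-fold, where 3 were also lower; over all genes 3.85%, 4.45% and 9.26% were higher and, at 1.5-fold, 18.9% lower. The 1 gene higher in the double deletion over ume6∆ became 0 with both scalings and with a pseudocount of 5, while 6 remained the count of lower genes. At 1.5-fold the double deletion had 2 genes higher and 5 lower than WT and 1 higher than snf2∆, where 21.9%, 19.2% and 20.1% of all genes were. The share of all genes lower in the double deletion than in snf2∆ was 3.59% and 3.94% with the 2 scalings. Rescaled to windows of 50 bases found once in the genome, the TDH1 share was 8.66%, 2.54%, 1.03% and 1.20% in the order WT, snf2∆, ume6∆, double deletion, and with 100 bases 9.28%, 2.75%, 1.11% and 1.30%. ENO1 shares were the same with both windows, since both genes hold equal shares of such windows. This rescaling presumes that reads matching several places were dropped, which the nonzero values of ERR1 and ERR2 do not bear out. It therefore cannot show how far reads of isozymes were mixed. Over protein-coding genes only, the 10 genes held 5.46%, 5.34%, 8.16% and 4.26% of summed RPKM, against 4.43%, 4.11%, 6.18% and 3.29% over all genes.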

Other observations

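The glycerol branch, which leaves glycolysis at dihydroxyacetone phosphate, held a further isozyme pair that moved apart. GPP1, a glycerol-phosphate phosphatase, had 604 RPKM in WT, 3047 in snf2∆, 2929 in ume6∆ and 4498 in the double deletion. GPP2, its isozyme known to be induced by osmotic stress, had 286, 54.5, 77.3 and 53.2 RPKM in the same order. WT was the lowest library for GPP1 and the highest for GPP2, and the share of GPP2 in the pair was 32.1% in WT (exact interval 31.4% to 32.8%), 1.76% in snf2∆ (1.65% to 1.86%), 2.57% in ume6∆ (2.45% to 2.69%) and 1.17% in the double deletion (1.08% to 1.26%). Of the 4 genes of this branch, 2 were higher and 1 lower in snf2∆ over WT, 1 and 2 in ume6∆ over WT, and 1 and 2 in the double deletion over WT. Over all genes 3.31% were higher and 7.96% lower in the first of these, 4.59% and 15.2% in the second, and 10.4% and 9.97% in the last.

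Thiamine pyrophosphate is the cofactor of pyruvate decarboxylase. Of 20 thiamine genes, 6 were higher and 1 lower in snf2∆ over WT, 0 and 4 in ume6∆ over WT, and 10 and 3 in the double deletion over WT. The 4 lower in ume6∆ stand beside 15.2% of all genes, the 6 higher in snf2∆ beside 3.31% and the 10 higher in the double deletion beside 10.4%. The median log2 change was 0.92 in the last of these, where 0.06 was the median of all genes. SNZ1, of vitamin B6 synthesis, had 32.2 RPKM in WT, 192 in snf2∆, 34.7 in ume6∆ and 175 in the double deletion, so it was high in the libraries without SNF2. PHO3, a phosphatase that acts on thiamine phosphates, was low in those libraries, with 135, 38.4, 144 and 50.2 RPKM. THI5, THI11, THI12 and THI13 are near-identical copies, so their separate values are uncertain. SNZ2 and SNZ3 had 41.4 and 42.0 RPKM in the double deletion, and SNO2 and SNO3 had 29.3 each. All of these genes were among the 10 higher in the double deletion. THI5, THI12, THI13, SNZ3 and SNO3 were also among the 6 higher in snf2∆. Both counts may therefore hold the same reads more than once. The enolase-related genes ERR1, ERR2 and ERR3, named here after their values were seen, had 1.56 to 4.15 RPKM in WT, snf2∆ and ume6∆ and 15.8 to 23.3 RPKM in the double deletion.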
